A study of Taeniopygia guttata with 2 samples.

Results

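CDH5, PECAM1, KDR, TIE1, SOX18 and EGFL7 are genes by which endothelial cells, the cells that line blood and lymph vessels, are commonly recognised. They were taken by name from the gene table and make up 6 of the 20511 genes in it. Each name had 1 row there, with the Ensembl identifiers ENSTGUG00000009813 for CDH5, ENSTGUG00000004687 for PECAM1, ENSTGUG00000007557 for KDR, ENSTGUG00000007100 for TIE1, ENSTGUG00000007265 for SOX18 and ENSTGUG00000006050 for EGFL7. They were followed in 17054 cells of zebra finch gonads, of which 651 were endothelial-like by other markers.

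The gonads came from embryos at Hamburger Hamilton stage 28, with 7 female embryos in one pool and 7 male embryos in another. Each pool gave 1 library of single cells on the 10x Chromium system, which counts unique molecular identifiers (UMIs), 1 for each captured RNA molecule, at the 3′ ends of transcripts. The sexes therefore differ in library and in pool at once, and female and male values below describe 2 libraries, with no replicate behind them. The legend of a supplement of the study calls batch 1 male and batch 2 female. Barcode suffix -1 was read as the male library and suffix -2 as the female library on that ground, which the sample labels do not state.

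CDH5 encodes the cadherin of endothelial junctions, and PECAM1 an adhesion molecule at the contacts of endothelial cells that leukocytes and platelets of mammals carry as well. KDR is the main signalling receptor for the vascular growth factor VEGFA, and TIE1 a receptor tyrosine kinase that works together with TEK, the receptor of the angiopoietins. SOX18 is a transcription factor of vascular and lymphatic development in mammals and fish, and EGFL7 a secreted protein that endothelial cells lay down in their matrix.

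The female library held 98701138 UMIs and the male library 124217899. Barcodes with at least 2000 UMIs were taken as cells, 7593 female and 9461 male ones. Female cells had a median of 9126 UMIs and male cells 9027. They carried 79.4% of all female UMIs and 77.1% of all male UMIs, and 18 cell barcodes occurred in both libraries. Levels are given as counts per 1000000 (CPM), the UMIs of a gene per 1000000 UMIs summed over the cells named, with exact 95% Poisson intervals. Shares of cells have exact 95% binomial (Clopper-Pearson) intervals. Both cover counting error only and not the spread between embryos. A level is compared for the same gene between cells and not between genes, since the capture of 3′ ends differs among genes. Over all cells, SOX9 stood at 46.6 CPM in the female library and 129 CPM in the male, DMRT1 at 40.8 and 145 CPM, and the aromatase gene CYP19A1 at 7.58 and 0.449 CPM.

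To see where the 6 genes were expressed without using them, the cells were clustered with all 6 left out. Of 23 clusters, 1 was endothelial-like: it raised 21 of the 22 endothelial marker genes found in the files, among them the VEGF receptors FLT1 and FLT4, the transcription factors ERG and FLI1 and the receptor component RAMP2. It took in 226 female cells, at a median depth of 10691 UMIs, and 425 male cells, at 10467 UMIs. That was 2.98% (2.61 to 3.38) of the female and 4.49% (4.08 to 4.93) of the male cells. The summed level of the 22 markers was 5733 CPM in female endothelial-like cells and 5497 CPM in male ones, against 99.3 CPM in all other female and 136 CPM in all other male cells. Since every gene of a cell shares the UMIs that placed it in a cluster, levels in this cluster against the rest are a description and no test was made.

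All 6 genes had their highest level of any cluster compared in the endothelial-like cells, in both libraries, as had 399 of 10654 genes tested, or 3.75%. They differed widely in how far the other cells fell below. CDH5, SOX18 and TIE1 stood at least 10-fold above the next highest cluster in each library, with 5 CPM added to both levels. These were 3 of the 6 genes, where 22 of 10654 genes tested, or 0.206%, reached that fold. PECAM1 stood 9.47-fold above it in the female library and 6.16-fold in the male, KDR 8.545-fold and 8.52-fold, and EGFL7 3.22-fold and 2.09-fold. Clusters with under 200000 UMIs in a library were left out of this comparison, which kept 18 other clusters in the female library and 21 in the male. The added 5 CPM lowers the fold of PECAM1 most, since its level was low. Without it and with both libraries summed, the fold over the next highest cluster was 16.95 for PECAM1. It was 35.7 for CDH5, 26.4 for TIE1, 21.7 for SOX18, 9.33 for KDR and 2.63 for EGFL7.

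CDH5 stood at 365 CPM (342 to 389) in female endothelial-like cells and 348 CPM (331 to 365) in male ones. All other cells together had 1.503 CPM in the female library and 2.16 CPM in the male, and no other class had more than 14.7 CPM in either. The endothelial-like cells carried 89.0% of the CDH5 UMIs of female cells and 89.6% of those of male cells. The next highest cluster, macrophage-like, had 8 UMIs in 166 cells or 9.90 CPM (4.27 to 19.5), all in male cells, and the neural-like cluster 8.96 CPM (5.80 to 13.2). The fold over the macrophage-like cluster was 24.1. Taken over the next highest cluster of each alternative, the fold was lowest, at 14.6, with each library clustered alone. It was highest, at 37.6, without the 8% of cells with the highest Scrublet doublet scores. All 25 CDH5 UMIs of the neural-like cluster lay in 4 of its 187 cells. A CDH5 UMI was seen in 88.5% of female and 86.8% of male endothelial-like cells, and in 1.15% and 1.78% of other cells, whose median depth was 9080 UMIs in the female library and 8970 in the male. With every cell thinned to 2000 UMIs these shares were 48.7% and 43.1% in endothelial-like cells, against 0.299% and 0.354% in other cells.

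PECAM1 had the fewest UMIs of the 6, at 90.7 CPM (79.4 to 103) in female endothelial-like cells and 54.4 CPM (48.1 to 61.4) in male ones. A UMI was seen in 100 of 226 female and 146 of 425 male cells, or 44.2% and 34.4%. In all other cells the level was 0.962 CPM in the female library and 0.935 CPM in the male, and 0.937% and 0.919% of cells had a UMI. With cells thinned to 2000 UMIs, PECAM1 was seen in 15.04% of female and 9.41% of male endothelial-like cells, against 0.231% and 0.232% of other cells. No class outside the endothelium came above 3.94 CPM with both libraries summed, the value of the neural-like cluster. The macrophage-like cells had 3 PECAM1 UMIs, and the erythrocyte-like cells had none in either library, with an upper Poisson limit of 0.834 CPM in female erythrocyte-like cells and 0.8905 CPM in male ones. The fold over the next cluster was 8.03. It was 4.44 when barcodes of at least 1000 UMIs were admitted and 13.7 with 1 CPM added in place of 5.

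TIE1 stood at 292 CPM (271 to 314) in female endothelial-like cells and 337 CPM (321 to 354) in male ones. All other cells had 2.003 CPM in the female library and 2.72 CPM in the male, so that 82.9% of female and 86.9% of male TIE1 UMIs lay in endothelial-like cells. The neural-like cluster was next with 12.2 CPM (8.44 to 17.02), where 34 UMIs lay in 4 cells. The fold over it was 19.0. Over the next highest cluster of each alternative, the fold was 10.9 at resolution 1.2 and 33.3 without the cells of highest doublet scores. A TIE1 UMI was seen in 71.7% of female and 70.6% of male endothelial-like cells, against 1.67% and 2.52% of other cells, and after thinning in 37.6% and 39.3%, against 0.312% and 0.620%.

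KDR was the receptor with the wider range. It stood at 491 CPM (464 to 519) in female endothelial-like cells and 354 CPM (338 to 372) in male ones, which held 69.5% and 70.2% of the KDR UMIs. A UMI was seen in 92.0% of female and 89.4% of male endothelial-like cells, against 3.10% and 4.19% of other cells, and after thinning in 59.3% and 48.5%, against 1.195% and 1.33%. The next highest cluster, interstitial/mural-like and led by TMEM100 and SNAI1, had 53.0 CPM (46.9 to 59.8) in 660 female cells and 37.2 CPM (33.3 to 41.4) in 1068 male cells. The fold over this cluster was 8.46. When each library was clustered alone, the fold over the next highest cluster of either library was 3.07. There the endothelial-like level is pooled over both libraries and the other cluster holds cells of 1. The other interstitial/mural-like clusters had 15.1 CPM (12.5 to 18.2) in the dividing, TOP2A-led one and 6.51 CPM (5.14 to 8.14) in the ACTA2-led one, and their intervals do not overlap. The COL8A1-led cluster, nearly all male, had 14.8 CPM (11.3 to 19.1) and the epithelial-like cluster led by TNFRSF6B 10.97 CPM (9.15 to 13.04). The other epithelial-like, the supporting-like and the germ-like clusters had at most 4.34 CPM with both libraries summed.

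Most cells of the TMEM100-led cluster had no UMI of CDH5, SOX18, PECAM1 or TIE1, and those with KDR lacked all 4 less often than those without. The cluster held 598 KDR UMIs and 65 of CDH5, 9.31 KDR per CDH5 UMI in the female library and 9.11 in the male. The female and male endothelial-like cells had 1.34 and 1.02, and the free RNA, taken from barcodes with at most 100 UMIs, had 1.19 and 0.868. In that cluster 210 of 1728 cells had a KDR UMI, on average 2.85 and at most 13. Of these 210 cells, 177 or 84.3% had none of these 4 genes, against 90.25% of the cluster's cells without KDR, and their median depth was 8765 UMIs, against 7639. Of the 41 cells with at least 5 KDR UMIs, 32 had none of the 4. The endothelial markers summed to 500 CPM in the cluster's cells with KDR, against 287 CPM in those without, and the part of doublets in this difference was not tested.

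SOX18 stood at 297 CPM (276 to 319) in female endothelial-like cells and 280 CPM (266 to 296) in male ones, against 2.91 and 3.5 CPM in all other cells. Of all SOX18 UMIs in cells, they had 77.2% in the female library and 81.1% in the male. The next highest cluster was steroidogenic-like, with 13.2 CPM (8.44 to 19.6) and 24 UMIs in 14 of 194 cells, and the fold over it was 16. Without the cells of highest doublet scores, the fold over the next highest cluster was 24.1. A SOX18 UMI was seen in 77.9% of female and 76.5% of male endothelial-like cells, against 2.69% and 3.08% of other cells, and after thinning in 36.3% and 38.1%, against 0.502% and 0.675%. CDH5 had 9 UMIs in 2 cells of the steroidogenic-like cluster. Low SOX18 was also spread over the epithelial-like cells, with 3.46 CPM (2.79 to 4.24) in the female library and 4.36 CPM (3.57 to 5.26) in the male, where CDH5 had 0.901 and 1.73 CPM.

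**Figure D1:**
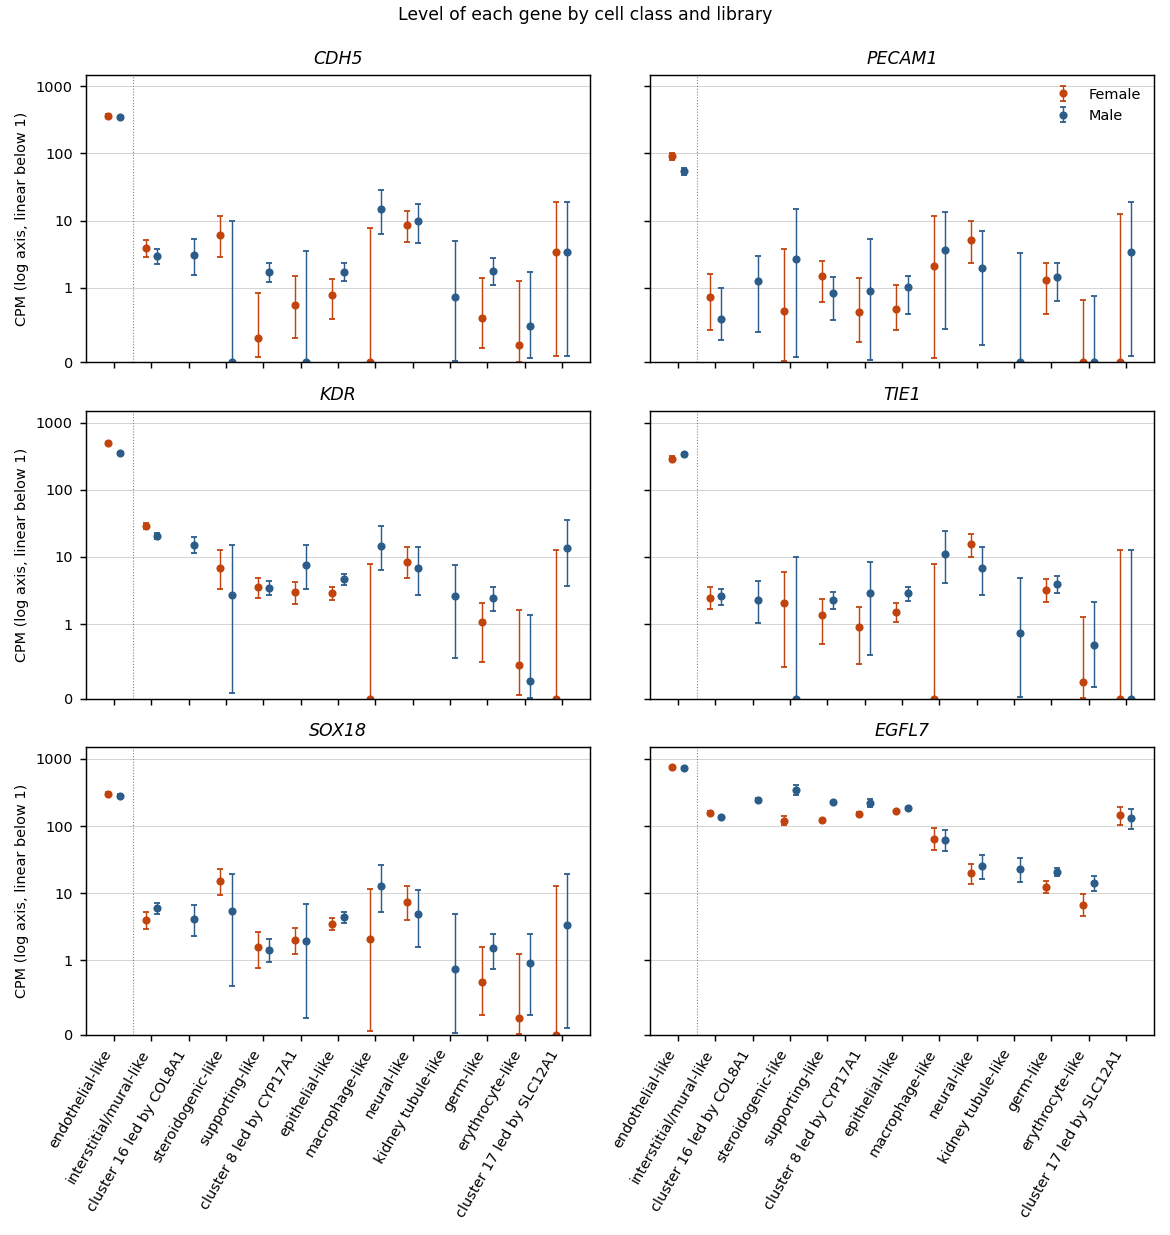
Level of each of the 6 genes in CPM, on an axis that is logarithmic above 1 and linear below, in the endothelial-like cells (left of the dotted line) and in 12 other groups of cells, for the female and the male library. Points are sums over cells and bars are 95% Poisson intervals. For 5 genes every other group lies at or below 29.3 CPM, whereas EGFL7 stands at 121 to 349 CPM in the steroidogenic-like, supporting-like and epithelial-like groups.

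EGFL7 had the least restricted pattern of the 6. It stood at 750 CPM (717 to 785) in female endothelial-like cells and 735 CPM (711 to 759) in male ones, and a UMI was seen in 98.2% and 97.2% of them. Yet these cells held only 16.4% of female EGFL7 UMIs and 20.3% of male ones. All other cells had 127 CPM (125 to 130) in the female library and 155 CPM (152 to 158) in the male. A UMI was seen in 59.8% of the other female and 62.6% of the other male cells, and after thinning in 23.8% and 25.9%. The endothelial-like cells had 70.4% and 73.7% after thinning. The fold over the next highest cluster was 2.60.

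Outside the endothelium, EGFL7 differed between kinds of cell. With both libraries together it stood at 281 CPM (272 to 291) in a supporting-like cluster of 13 female and 1297 male cells, 247.5 CPM (239 to 257) in the epithelial-like cluster led by TNFRSF6B, 238 CPM (223 to 254) in the COL8A1-led cluster and 196.5 CPM (189 to 204) in the TMEM100-led cluster. It stood between 104 and 184 CPM in the other supporting-like, epithelial-like, interstitial/mural-like and steroidogenic-like clusters and in the clusters led by CYP17A1 and SLC12A1. Macrophage-like cells were lower, at 65.05 CPM in the female library and 62.45 CPM in the male. Neural-like cells had 19.9 CPM in the female library and 25.25 CPM in the male, male kidney tubule-like cells 22.9 CPM, germ-like cells 12.4 and 20.9 CPM, and erythrocyte-like cells 6.78 and 14.0 CPM.

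The germ-like and erythrocyte-like cells were deeper than most. Germ-like cells had a median depth of 18469 UMIs in the female library and 15998 in the male, and erythrocyte-like cells 18774 and 18956. At 2000 UMIs per cell, EGFL7 was detected in 2.21% of female and 3.67% of male germ-like cells, in 1.67% and 2.14% of erythrocyte-like cells, and in 29.15% and 31.4% of epithelial-like cells. The free RNA held 176 CPM of EGFL7 in the female library and 189 CPM in the male, close to the epithelial-like level of 170 and 185 CPM and above the germ-like level of 12.4 and 20.9 CPM. In free RNA there were 11.5 EGFL7 UMIs per CDH5 UMI in the female library and 7.30 in the male. Pooled over both libraries, the epithelial-like cluster led by TNFRSF6B had 76.0 and the nearly all male supporting-like cluster 168, and the endothelial-like cells had 2.09.

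**Figure D2:**
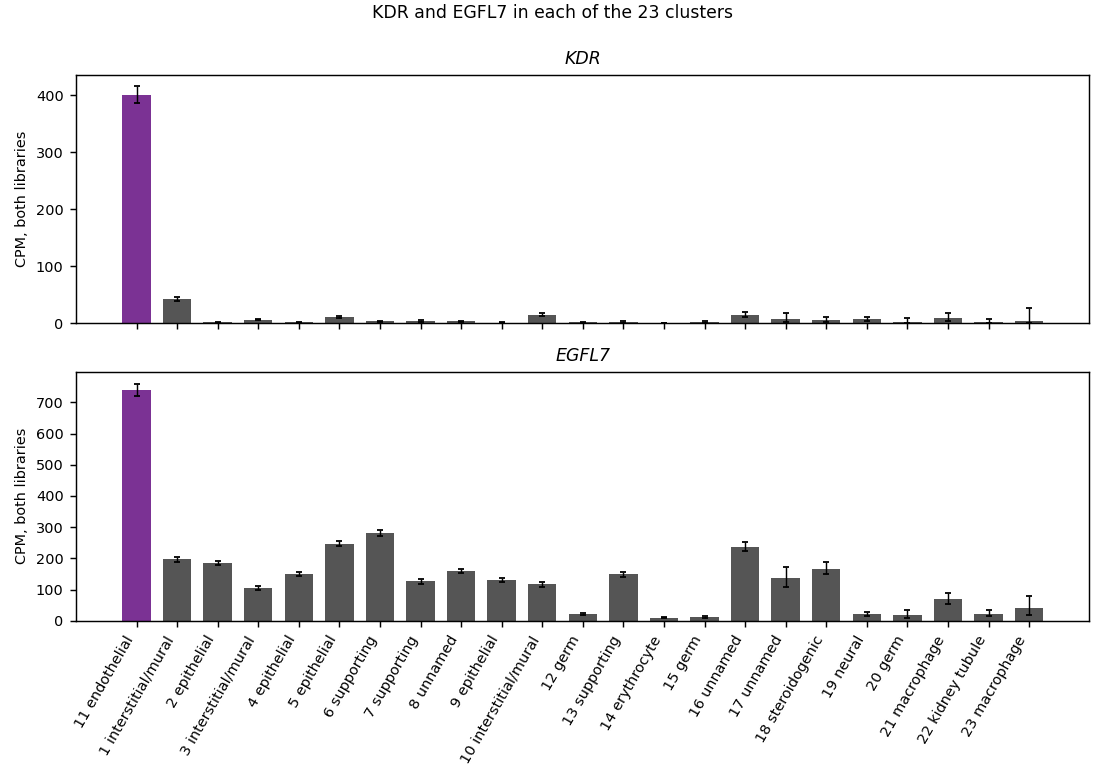
KDR and EGFL7 in CPM in each of the 23 clusters with both libraries summed, the endothelial-like cluster first in purple and the others in grey. Bars are levels and lines are 95% Poisson intervals. KDR falls to 43.0 CPM in the next highest cluster, while EGFL7 remains at 281 CPM in a supporting-like cluster and drops to 10.3 CPM in erythrocyte-like cells.

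Co-detection was counted as the number of the 6 genes with at least 1 UMI in a cell. The median was 5 in the endothelial-like cells of both libraries and 1 in all other cells. At least 3 genes were seen in 92.0% (87.7 to 95.2) of female and 92.7% (89.8 to 94.99) of male endothelial-like cells, against 0.4615% (0.320 to 0.644) of other female and 0.675% (0.517 to 0.866) of other male cells. All 6 were seen in 70 of 226 female and 98 of 425 male endothelial-like cells. The count depended on depth. At 2000 UMIs per cell, at least 3 genes were seen in 53.5% (46.8 to 60.2) of female and 49.9% (45.0 to 54.7) of male endothelial-like cells, and in 5 of 7367 female and 4 of 9036 male other cells.

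**Figure D3:**
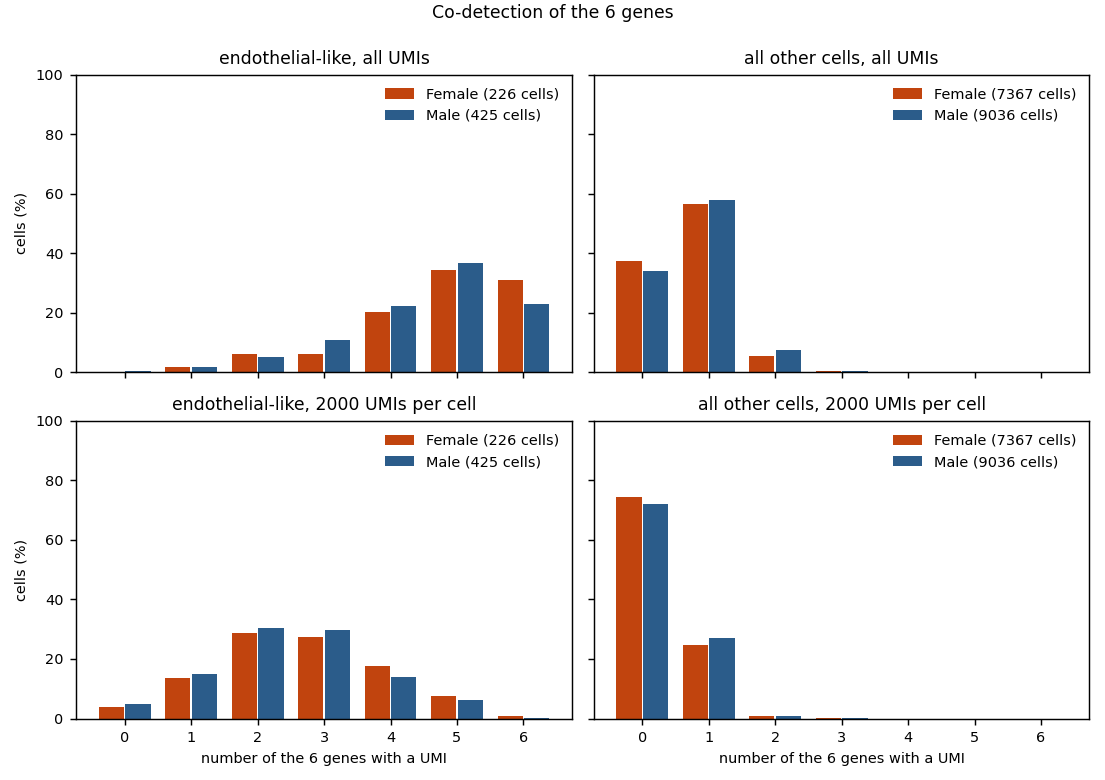
Share of cells, in percent, by how many of the 6 genes had a UMI, for endothelial-like cells (left) and all other cells (right), as counted (top) and after thinning each cell to 2000 UMIs (bottom), with the female and the male library side by side. As counted, endothelial-like cells peak at 5 genes and other cells at 1, and after thinning most other cells have none.

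The gene that endothelial-like cells lacked was most often PECAM1. Of the 234 cells with exactly 5 of the 6, 168 lacked PECAM1, 39 SOX18, 14 TIE1, 10 KDR and 3 CDH5, while none lacked EGFL7. Among pairs as counted, PECAM1 and TIE1 were seen together most in excess of the product of their own shares. They were seen together in 41.15% of female and 31.3% of male cells, where the products were 31.7% and 24.25%. Over the 15 pairs the ratio of these 2 shares had a median of 1.02 in the female library and 1.03 in the male and ran from 0.993 to 1.30 in the female and from 1.003 to 1.29 in the male library. These pairs share the cells and their depths.

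The single gene seen in other cells was mostly EGFL7. Without it, at least 3 of the remaining 5 genes were seen in 85.8% of female and 82.35% of male endothelial-like cells, and in 0.0679% of other female and 0.155% of other male cells. These were 19 other cells, 5 female and 14 male, with a median of 16865 UMIs. Their endothelial markers summed to 1775 CPM, against 113 CPM in other cells with fewer than 3 of the 6 genes. Of the 19, 3 lay in the neural-like cluster and held 772 neural marker UMIs, while the remaining 16 held 5 such UMIs and had endothelial markers at 1106 CPM. The 19 cells had a median Scrublet doublet score of 0.0545, against 0.0267 in the other cells with fewer than 3 of the 6 genes, whose median depth was 9022 UMIs. Endothelial-like cells with at least 3 of the genes had 0.0437. Scrublet marked only 1 female and 0 male cells in all as doublets. Of the 49 endothelial-like cells with fewer than 3 of the 6 genes, the median depth was 4120 UMIs, against 10962 in the other endothelial-like cells, and their interstitial markers summed to 1382 CPM, against 298 CPM. The part of mixed cells in these values was not tested.

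The level of the 6 genes also varied with cell depth within the endothelium. Their summed level was 2851 CPM (2536 to 3194) in female endothelial-like cells and 2866 CPM (2600 to 3152) in male ones of 2000 to under 5000 UMIs. It was 2106 CPM (1927 to 2298) in the 10 female cells and 1757 CPM (1669 to 1848) in the 37 male cells of at least 20000 UMIs. Of single genes, EGFL7 stood at 880 and 836 CPM in the shallowest female and male cells and at 492.5 and 501 CPM in the deepest. SOX18 went the other way in the female library, at 143.5 CPM in the shallowest and 463.5 CPM in the deepest cells.

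The endothelial-like cells were clustered again, once more without the 6 genes, to see how these vary among endothelial-like cells. This gave 9 subsets of 42 to 104 cells, each with 15 to 20 of the 22 endothelial markers at 20 CPM or more. They are called by their leading genes here. The subset led by GJA5, a connexin of arteries, raised 9 of the 9 arterial markers in the files. The subset led by ITIH5 raised 4 of 5 lymphatic markers, with PROX1, the regulator of lymphatic identity, at 1573 CPM. The subset led by EDN1 raised 4 of 5 venous markers. Subsets led by CDC20 and by ASPM raised all 5 markers of dividing cells.

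CDH5, PECAM1 and SOX18 were highest in the GJA5-led subset, where KDR and EGFL7 were lower than in all other subsets but the RERG-led one, with both libraries summed. CDH5 stood there at 611 CPM in 24 female cells and 578 CPM in 48 male cells, SOX18 at 513 and 496 CPM, and PECAM1 at 255 and 110 CPM. KDR stood at 261 CPM in its female and 283 CPM in its male cells, and EGFL7 at 542 and 562 CPM. In the EDN1-led subset KDR reached 612 CPM in 52 female cells and 386 CPM in 52 male cells, and SOX18 stood at 179 and 98.6 CPM, its lowest level with both libraries summed. The RERG-led subset, which also raised 6 epithelial and 4 interstitial markers, had the lowest EGFL7, 380 CPM in 10 female cells and 423 CPM in 32 male cells.

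TIE1 was highest in the ITIH5-led subset, with 734 CPM (635 to 844) in 26 female cells and 1125 CPM (1019 to 1239) in 38 male cells. KDR was also at its highest there with both libraries summed, at 529 CPM in the female cells and 584 CPM in the male. The other VEGF receptors FLT4 and FLT1 stood at 680 and 6.29 CPM in this subset. TEK, the partner of TIE1, was at 3.14 CPM in the same subset, against 94.8 CPM over all endothelial-like cells.

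TIE1 and PECAM1 were near 0 in 1 subset that kept KDR and EGFL7, while most endothelial markers were reduced there. The 74 cells led by TGFB2 and RUNX2 had 0 TIE1 UMIs in 27 female and 2 in 47 male cells, and 1 PECAM1 UMI in each library. With both libraries summed, each of the 2 genes stood at 2.60 CPM (0.315 to 9.41). In the same cells KDR stood at 752 CPM (652 to 863) in the female library and 418 CPM (364 to 479) in the male, and EGFL7 at 756 and 931 CPM. CDH5 was at 74.5 and 112 CPM, its lowest of any subset. LMO2, a factor of endothelial and blood cell formation, stood at 1892 CPM, and FLI1 at 332 CPM. RAMP2 was at 29.95 CPM, against 1281 CPM over all endothelial-like cells. Most other markers of the endothelial list were lower there too. ERG stood at 74.2 CPM, CD93 at 46.9 CPM and CD34 at 59.9 CPM, against 255, 263 and 238 CPM over all endothelial-like cells. TEK, ENG and HHEX were not lower, at 105.5, 561 and 107 CPM, against 94.8, 485 and 73.2 CPM.

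This TGFB2-led subset also raised 5 of 7 interstitial and 3 of 3 erythrocyte markers over the rest of the endothelium. Markers of further lists were raised in it too: 3 blood-forming, 3 mural, 3 supporting, 3 epithelial, 2 germ and 2 macrophage ones. Its summed erythrocyte markers came to 8994 CPM, against 547.5 to 4225 CPM in the other subsets, and its interstitial markers to 1181 CPM, against 82.7 to 839 CPM. Their part in the result was not tested. TIE1 and PECAM1 were also low, with KDR and EGFL7 kept, in the subsets led by MEOX1 and by CDC20. TIE1 stood at 125 CPM (99.9 to 155) in the 68 MEOX1-led and 83.0 CPM (65.0 to 104) in the 68 CDC20-led cells, and PECAM1 at 13.4 and 7.96 CPM. LMO2 was high in both as well, at 1570 and 1971 CPM, and RAMP2 low, at 468 and 381 CPM. The MEOX1-led subset raised 4 of 5 thrombocyte markers, at a summed 43.2 CPM, against 0 to 4.55 CPM in the other subsets, and 27 of its 29 UMIs of these markers lay in 1 of its 68 cells. The ASPM-led dividing subset did not share this, with TIE1 at 313 CPM and PECAM1 at 71.1 CPM. A subset of 74 cells again gave the lowest CDH5, PECAM1 and TIE1 when the resolution of the second clustering was 0.5 or 1.2 in place of 0.8, an alternative chosen after seeing the data.

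**Figure D4:**
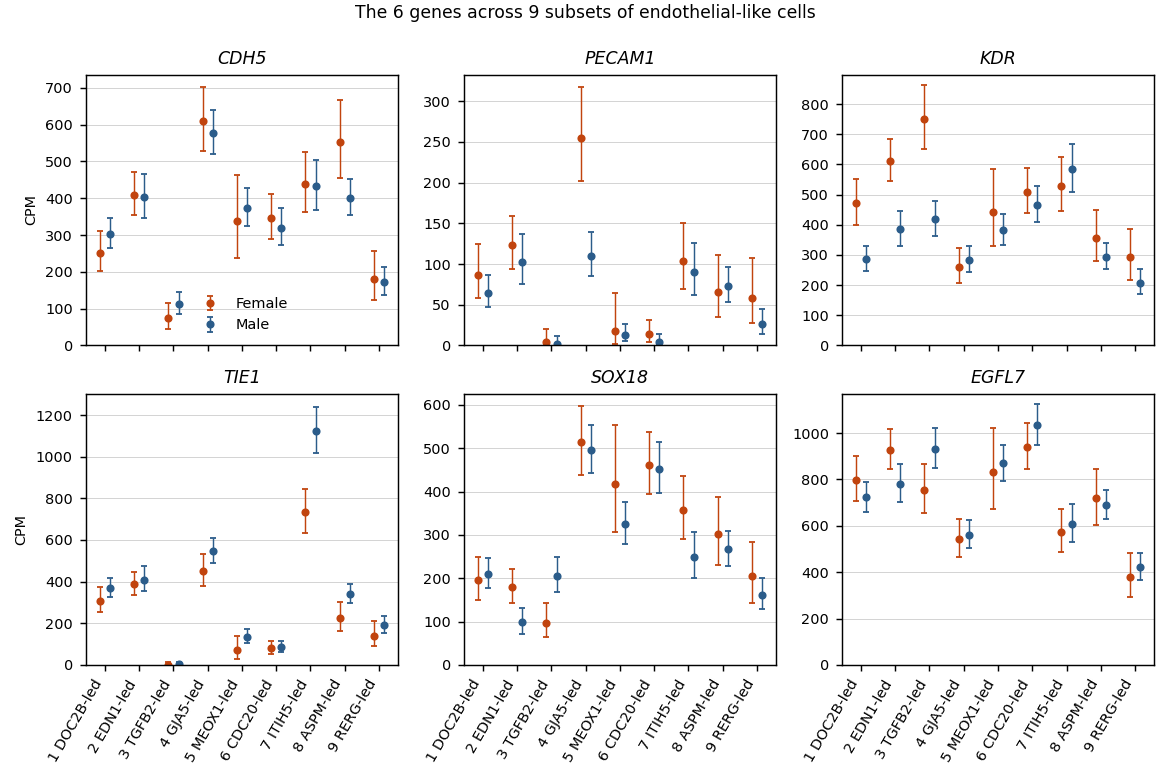
Level of each of the 6 genes in CPM, on linear axes that differ between panels, across 9 subsets of the endothelial-like cells in the female and the male library. Points are sums over cells and bars are 95% Poisson intervals. PECAM1 and TIE1 lie near 0 in the TGFB2-led subset, where KDR and EGFL7 do not, CDH5 and SOX18 peak in the GJA5-led subset, and TIE1 peaks in the ITIH5-led subset.

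Between the 2 libraries the summed level of the 6 genes in endothelial-like cells was 2286 CPM (2227 to 2345) in the female cells and 2109 CPM (2068 to 2150) in the male, a log2 ratio of 0.12 (0.07 to 0.16). The median log2 ratio over 6722 genes tested was -0.01, and 48.8% of them lay above 0. Single genes went in different directions. PECAM1 was higher in the female library by 0.74 (0.4765 to 0.9986) on the log2 scale and KDR by 0.47 (0.36 to 0.58), while TIE1 was lower, at -0.21 (-0.33 to -0.08). CDH5 at 0.07 (-0.05 to 0.19), SOX18 at 0.08 (-0.05 to 0.21) and EGFL7 at 0.03 (-0.05 to 0.11) had intervals that include 0. With each library clustered alone, the TIE1 interval included 0, at -0.10 (-0.23 to 0.02), and those of CDH5, at 0.15 (0.04 to 0.27), and SOX18, at 0.16 (0.03 to 0.29), did not. PECAM1 alone passed 1.5-fold with 5 CPM added. That was 1 of the 6 genes higher in the female library, where 1.47% of genes tested passed, and 0 lower, where 4.05% did.

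**Figure D5:**
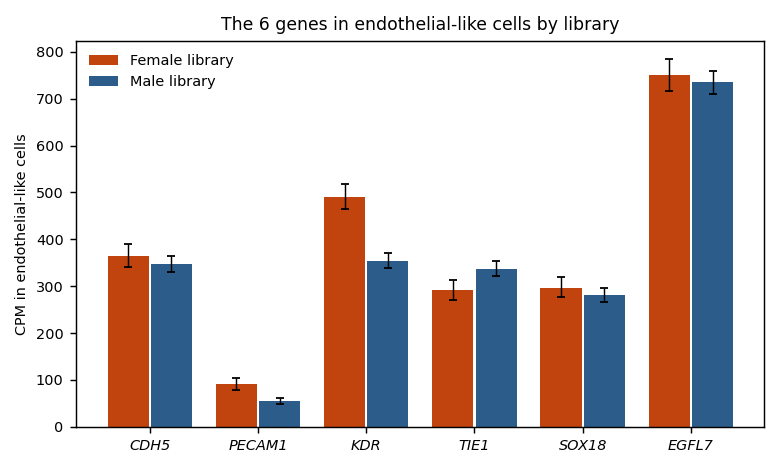
Level of the 6 genes in CPM in endothelial-like cells of the female (226 cells) and the male library (425 cells). Bars are sums over cells and lines are 95% Poisson intervals, which cover counting error only. KDR and PECAM1 are higher and TIE1 is lower in the female library, and the intervals of CDH5, SOX18 and EGFL7 overlap.

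The makeup of the endothelium differed between the libraries as well. The EDN1-led subset took 23.01% (17.7 to 29.05) of female and 12.2% (9.27 to 15.7) of male endothelial-like cells, and the MEOX1-led subset 4.87% (2.45 to 8.54) and 13.4% (10.3 to 17.02). Within subsets, PECAM1 was higher in the female library in 8 of 9 subsets and KDR in 7 of 9, and TIE1 was lower in 9 of 9. SOX18 was also higher in 7 of 9, CDH5 in 6 of 9 and EGFL7 in 3 of 9. The subsets are parts of the same 2 libraries and not replicates. In the TGFB2-led subset the direction rested on 0 female and 2 male UMIs for TIE1, and on 1 UMI in each library for PECAM1. The intervals stood apart for PECAM1 in the GJA5-led subset, for KDR in the DOC2B-led, EDN1-led and TGFB2-led subsets, and for TIE1 in the ITIH5-led subset. They also stood apart for CDH5, higher in the ASPM-led subset, and for SOX18, higher in the EDN1-led and lower in the TGFB2-led subset. With each subset given equal weight, PECAM1 averaged 81.0 CPM in the female cells and 53.9 CPM in the male, KDR 470 and 368 CPM, and TIE1 266 and 357 CPM. The erythrocyte markers, 3 genes in the files, summed to 531 CPM in female endothelial-like cells and 2696 CPM in male ones. With hemoglobin UMIs left out of the totals and 5 CPM added, the log2 ratio was 0.69 for PECAM1, 0.46 for KDR and -0.21 for TIE1, against 0.69, 0.46 and -0.20 with them. With 1 library per sex, sex and library cannot be told apart.

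Outside the endothelium, KDR was higher in the female library in the 3 interstitial/mural-like clusters too. It stood at 53.0 and 37.2 CPM in the female and male cells of the TMEM100-led cluster, 9.16 and 4.41 CPM in the ACTA2-led and 22.2 and 12.3 CPM in the dividing one. In the epithelial-like cluster led by TNFRSF6B it was lower in the female library, at 8.11 CPM, against 15.3 CPM in male cells. EGFL7 in supporting-like cells was 121 CPM in the female library and 226.5 CPM in the male. Of the 3 supporting-like clusters, the highest in EGFL7 held 13 female and 1297 male cells. Of the other two, 1 had intervals that overlap between the libraries, and the dividing one had 115 CPM of EGFL7 in the female cells and 179.5 CPM in the male. The steroidogenic-like cells had 121 CPM in 156 female cells and 349 CPM in 38 male cells.

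Of the pathway around KDR and TIE1, 12 of 13 listed VEGF and angiopoietin ligands and receptors were in the files and tested. FLT1 at 177 CPM and FLT4 at 262.5 CPM passed 10-fold in both libraries, as 2 of the 12 against 0.206% of all genes tested. In both libraries 5 of the 12 were higher than every other cluster, against 3.75% of all genes tested. FLT1, FLT4 and TEK are in these counts and were also among the markers that named the endothelial-like cluster. The counts are therefore not independent of that naming. TEK stood at 94.8 CPM in endothelial-like cells and at 6.90 CPM in the next cluster, which was again the TMEM100-led one. Most ligands were higher elsewhere. VEGFA stood at 13.9 CPM in endothelial-like cells and 95.6 CPM in the nearly all male supporting-like cluster, VEGFC at 15.96 and 93.0 CPM in the ACTA2-led cluster, ANGPT1 at 5.41 and 66.1 CPM in the same cluster, and VEGFD at 3.79 and 76.4 CPM in the CYP17A1-led cluster. ANGPT2 stood at 74.9 CPM in endothelial-like cells and 142 CPM in the epithelial-like cluster led by SEMA3E. PGF, another VEGF ligand, was higher in endothelial-like cells, at 89.25 CPM against 57.7 CPM in the next cluster, and ANGPT4 stood at 43.7 and 43.0 CPM.

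Of a list of junction and membrane genes set beside CDH5 and PECAM1, which also holds other cadherins, 12 of 13 were in the files. Of the 10 tested 0 passed 10-fold, against 0.206% of all genes, and 3 were higher than every other cluster in both libraries, against 3.75%. ESAM, among these 3, was also a marker that named the endothelial-like cluster. PTPRB, the endothelial phosphatase that acts on junctions, stood at 108 CPM in endothelial-like cells and 48.8 CPM in the TMEM100-led cluster. The neural cadherin gene CDH2 had 61.7 CPM in endothelial-like cells against 740 CPM in the epithelial-like cluster led by TNFRSF6B, and CDH11 had 15.15 CPM against 263 CPM in the ACTA2-led cluster. Of the transcription factors listed beside SOX18, 13 of 16 were in the files and 12 were tested. Of these 0 passed 10-fold in both libraries, against 0.206% of all genes, and 9 were higher than every other cluster in both, against 3.75%. ERG, FLI1, LMO2 and HHEX, among these 9, were also markers that named the endothelial-like cluster. SOX17, a close relative of SOX18, stood at 51.7 CPM in endothelial-like and 58.8 CPM in a shallow germ-like cluster.

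The 10 genes with at least 50 CPM in endothelial-like cells of both libraries whose level over the clusters was most like the mean of the 6 were KLHL4, GJA5, APLNR, SCARF1, ADGRL4, RHOJ, EMCN, FLT4, MMRN1 and TEK. Of these, APLNR, EMCN, FLT4, MMRN1 and TEK were also markers that named the endothelial-like cluster. Likeness was Pearson's r of log2 CPM with 5 CPM added, over 19 clusters of the female library and 22 of the male, and the lower of both ran from 0.94 for KLHL4 to 0.92 for TEK. Taken the same way, r against this mean was 0.96 for SOX18, 0.95 for CDH5, 0.93 for KDR, 0.92 for TIE1, 0.90 for PECAM1 and 0.62 for EGFL7, each of which is itself part of the mean. In the RefSeq annotation of assembly bTaeGut7.mat, another one than that of the files, EGFL7 lies between AGPAT2 and NOTCH1. AGPAT2 stood at 4.06 CPM in endothelial-like and 9.43 CPM in other cells, and NOTCH1 at 241 and 95.5 CPM. KDR lies beside KIT, which stood at 24.5 and 10.6 CPM.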

How the data were processed

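The values deposited are UMI counts per gene and barcode, whole numbers from before any call of cells. The authors obtained them from Cell Ranger (v5.0.0) and a bTaeGut1_v1 reference with Ensembl identifiers. Whether reads were subsampled when the libraries were joined is not given in the sources used here. A UMI was seen on 1490953 female and 1528951 male barcodes.

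Barcodes with at least 2000 UMIs were kept, without correction for free RNA. Levels were taken without a gene filter, and the clustering used only genes seen in at least 3 cells. Counts were scaled to 10000 per cell and log transformed, and cells were clustered from 2000 variable genes, 20 components and 20 neighbours at resolution 0.8 with scanpy 1.11.5 and igraph 0.11.9. Subsets used 15 components. A cluster took the class with the largest share of its markers raised 1.5-fold over all other cells, with at least 3 markers. Clusters named for the interstitial or the mural list that raised at least 3 markers of both were joined as 1 class. This naming rule, and the 200000 UMIs a cluster needed to enter a fold, were set after values were seen. Scrublet marked 1 female and 0 male cells at its automatic thresholds of 0.601 and 0.627. Its calls were therefore not used, and doublets were left in. Its scores served for 1 alternative and for medians, and how well they mark doublets was not tested.

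The 6 genes and all lists were chosen with earlier results of these data known. Named are the 6, the listed genes and the 10 genes most like them. Other genes named lead a cluster, check the sex labels or lie beside a member, and were chosen after values were seen. Some single values for 1 supporting-like cluster are not reported here. Genes tested had at least 20 CPM in 1 of the clusters or libraries compared. With 1 library per sex no test was made. The calls were tested on simulated data, and the outcome is not given here. Alternatives changed the UMI minimum, the resolution, the genes and libraries clustered, doublets, free RNA, the UMIs for detection, the depth, hemoglobin UMIs and the CPM added.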

Additional observations from a re-analysis of the deposited data

Results flagged for a closer look

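Barcodes below the minimum of 2000 UMIs were left out of the comparisons, and some carried the endothelial genes. Of barcodes with 500 to under 2000 UMIs, at least 3 of the 6 genes were seen in 0.6002% (16 of 2666, 0.343 to 0.973) in the female and 0.6146% (31 of 5044, 0.418 to 0.871) in the male library. They are given because they lie above the limit set for a count of 0, which at 3 barcodes is 0.1125% of the female ones and 0.0595% of the male ones. This limit does not tell cells from free RNA, and the part of free RNA in these shares was not tested. Among cells outside the endothelial-like cluster the share was 0.4615% for female and 0.675% for male cells, which are deeper than these barcodes. Thinned to 2000 UMIs, nearer to the depth of these barcodes but still above it, the same cells had 0.0679% and 0.0443%. The shares are therefore not at matched depth. In these barcodes EGFL7 stood at 137.5 CPM in the female library and 209 CPM in the male, and CDH5 at 21.8 and 24.0 CPM, against 15.35 and 25.9 CPM of CDH5 in free RNA.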

How the results depend on the processing

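Of 191 values recomputed under the alternatives, 140 stayed within the counting interval of the main value and 51 moved outside it. For a fold, that interval covered the counting error of the endothelial-like level only. The next highest cluster was held fixed, so the interval is too narrow and folds are counted as moved too readily. A change of direction could be called only for female over male ratios whose main interval excludes 0, and of these 0 changed direction. At least 3 genes were seen in 86.9% of male endothelial-like cells with a minimum of 1000 UMIs and in 96.0% with 5000. With each library clustered alone, the female summed level was 2358 CPM and the female share 96.1%. Without the 8% of cells with the highest Scrublet scores, the summed level was 2462 CPM in the female cells and 2272 CPM in the male, and the female share 96.9%. With free RNA subtracted at an assumed 10%, the summed level was 2514 CPM in the female cells and 2312 CPM in the male. The erythrocyte markers summed to 531 CPM in female endothelial-like cells, against 33083 CPM in free RNA. In the male library they summed to 2696 and 23428 CPM. For the female cells, 10% is more than these markers allow. With 2 UMIs for detection, the share was 80.5% of female and 80.0% of male endothelial-like cells, against 0.0950% and 0.144% of other cells. Thinned to 2000 UMIs it was 53.5% and 49.9%, against 0.0679% and 0.0443%. With EGFL7 not counted, an alternative chosen after seeing the data, it was 85.8% and 82.35%, against 0.0679% and 0.155%. The female over male log2 ratio of the summed level stayed between 0.11 and 0.16. No paired analysis was possible because each sex has 1 library, and for the same reason no library could be left out. Of the genes followed, PECAM1 was seen in the fewest endothelial-like cells, 246 of 651. Over the subsets its share ran from 2.70% of TGFB2-led cells, at a median of 10142 UMIs, to 69.4% of GJA5-led cells, at 13996 UMIs. The part of depth in these shares was not tested.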
